A study of Mus musculus with 6 samples.

Results

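The p53 target genes described here are 32 genes of the p53 pathway: Trp53, which encodes p53, its ubiquitin ligase Mdm2, and 30 genes known as p53 targets in cell cycle arrest, apoptosis, DNA repair and metabolism. They were chosen by symbol from a table of 25239 genes, and all 32 were present and tested. RNA was sequenced from E14, a line of mouse embryonic stem cells, grown in N2B27 medium with LIF and the 2i inhibitors. One group received a control siRNA and the other an siRNA against Ehmt2, the histone H3 lysine 9 methyltransferase also called G9a, delivered by lipid transfection as 2 μl of a 40 μM stock, and cells were collected 3 days later. Each group held 3 libraries, whose labels give genotype WT for the controls and EHMT2 knockdown for the others. The labels do not state that the libraries came from separate cultures, so p-values measure only the spread between these libraries. No group received a DNA-damaging agent or an Mdm2 inhibitor according to the labels.

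All log2 fold changes below are those of the authors' deposited table, with positive values read as higher after Ehmt2 siRNA because the value of Ehmt2 was negative. The table holds 1 mean normalized count per gene over all 6 libraries, so no value per library can be shown and the depth of each library is unknown. A level for each group was computed from that mean and the fold change, on the assumption that the fold change is the ratio of the group means. These levels are called implied below. Ehmt2 fell from an implied 9539 to 3313 normalized counts (log2 fold change -1.53), and its level cannot check the labels independently, since it set the sign. The value of Ehmt1, which forms a complex with Ehmt2, was -0.05 (95% interval -0.22 to 0.11). All 12 naive pluripotency markers listed, among them Pou5f1, Nanog and Esrrb, had mean counts of 12382 or more. None passed the test described below, where 14.1% of genes with a mean of at least 50 did. By DESeq2's unadjusted p below 0.05, 1 marker was higher and 1 lower, where 26.2% of those genes were higher or lower.

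The transcription factor p53 is held at low activity in unstressed cells by Mdm2, which marks it for degradation and is itself a p53 target, so that both form a feedback loop. When DNA damage, ribosome assembly defects or other stress releases p53, it binds pairs of a decamer sequence near its targets and raises their transcription. Mouse embryonic stem cells carry high levels of p53 protein and have a short G1 phase. In these cells p53 is known to act on differentiation and pluripotency genes as well as on arrest and apoptosis genes.

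Few of the 32 genes changed. Rprm and Ei24 rose, Perp and Gdf15 fell, and 28 did not pass the test, an adjusted p below 0.05 (Benjamini-Hochberg over all 20461 genes with a p-value in the authors' DESeq2 comparison). Over all genes tested, 10.3% passed, 5.45% upward and 4.82% downward, and over the 12922 genes whose mean reached 50, which include all 32, 14.1% did, 6.86% upward and 7.19% downward. The count of 4 in 32 was near this background. By the unadjusted p, 3 members were higher and 6 lower below 0.05, where 10.2% of all genes were higher and 9.54% lower, or 19.7% together. Over genes whose mean reached 50, 12.6% were higher and 13.6% lower, or 26.2% together. The median log2 fold change of the 32 genes was -0.03, beside 0.01 over all genes tested, with 13 values above 0 and 19 below. The middle 50% of the members lay between -0.13 and 0.11. The number of falls depended on the genes over which p-values were adjusted. It was 2 over all tested genes and 3 over the 16543 genes sorted by p-value at the top of the table. It was 4 over genes with a mean of at least 10, and 5 over genes with a mean of at least 50. Among all genes of each of these sets, in the same order, 987, 1063, 1086 and 1032 fell.

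**Figure D1:**
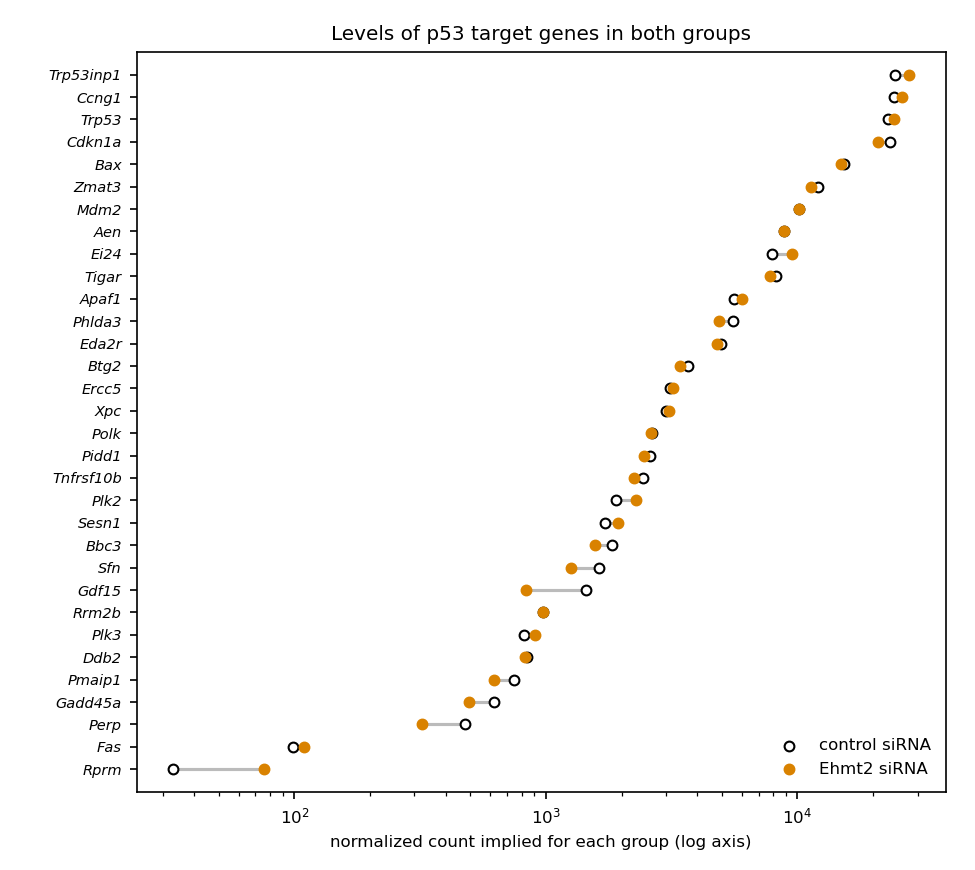
Normalized counts implied for each group for the 32 genes (x axis, log scale), ordered by mean count, with open circles for control siRNA and filled circles for Ehmt2 siRNA. The widest gaps separate the circles of Rprm (33.01 and 75.6), Perp (476 and 323) and Gdf15 (1442 and 833), while those of Mdm2, Aen and Rrm2b coincide. Narrower gaps occur in genes that passed, as Ei24 (7921 and 9527), and in genes that did not, as Sfn (1621 and 1261).

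Trp53 and Mdm2, the core of the loop, were both strongly expressed and differed little between the groups. Trp53 stood at an implied 22943 normalized counts in control cells and 24295 in Ehmt2 siRNA cells. Its log2 fold change of 0.08 had a 95% interval of -0.09 to 0.25 (adjusted p 0.750). Mdm2 stood at 10148 and 10104, with a log2 fold change of -0.01 (interval -0.31 to 0.30, adjusted p 0.993). The ends of that interval are 80.7% and 123% of the control level. Per kilobase of the longest annotated transcript, Trp53 ranked 3rd and Mdm2 8th of the 32, with means of 7212 and 3220 normalized counts per kilobase.

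The bases before the start sites of several members hold matches to the decamer of the p53 consensus, and some of these matches are shown here. Those before starts of Sesn1, Aen and Polk are not shown. All matches were found by a search of the letters and are not taken from known p53 sites of these genes. Those of Mdm2, Ccng1, Trp53, Gadd45a and Ei24 are single decamers. Capitals mark the decamers, including those with mismatches in Bax and Cdkn1a, and the stretches run from 5′ to 3′ on the gene's strand (RefSeq, GRCm38.p6).
Cdkn1a: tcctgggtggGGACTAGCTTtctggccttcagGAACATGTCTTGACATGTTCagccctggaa
Bax: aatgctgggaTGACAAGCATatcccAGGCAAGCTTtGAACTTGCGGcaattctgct
Mdm2: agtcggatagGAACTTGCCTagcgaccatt
Ccng1: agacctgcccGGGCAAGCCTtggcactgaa
Trp53: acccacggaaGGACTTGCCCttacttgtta
Gadd45a: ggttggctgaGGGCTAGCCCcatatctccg
Ei24: cgtgcggcccGGGCATGCCC
They lie at chr17:29090896-29090957 on the plus strand, chr7:45467069-45467124, chr10:117710925-117710954 and chr11:40755452-40755481 on the minus strand, chr11:69580274-69580303 on the plus strand, and chr6:67037428-67037457 and chr9:36797335-36797354 on the minus strand. Windows from 250 bases before to 50 after the start were on hand for 24 of the 32 genes. The decamer of the p53 consensus, searched without mismatch on both strands, occurred in 10 of these 24 genes (41.7%), against 9.55% of 27025 genes with a window. A pair of decamers spaced 0 to 13 bases apart, with at most 2 mismatches outside the cores, occurred in Cdkn1a, Bax and Sesn1, that is in 12.5% of members and 2.47% of all genes. In Cdkn1a, the overlapping pairs start 73 and 51 bases before the upstream start site, with spacers of 12 and 0 bases and with 0 and 1 mismatches. Of the 3 genes that changed and had a window, Ei24 holds a decamer, 10 bases before its start, and Rprm and Gdf15 hold none in these letters. None of Cdkn1a, Bax and Sesn1 passed the test. A match is a description of the letters, and its use by p53 was not measured.

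Among the 8 arrest genes, Rprm rose and the other 7 did not pass. Cdkn1a, which encodes the cyclin-dependent kinase inhibitor p21 and is the classical p53 arrest target, had an implied 23332 normalized counts in control cells and 20885 in Ehmt2 siRNA cells. Its log2 fold change was -0.16 (interval -0.36 to 0.04, adjusted p 0.426), so the ends of the interval are 78.0% and 103% of the control level. Per kilobase, Cdkn1a ranked 2nd of the 32 genes, with 10629 normalized counts.

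Rprm, which encodes Reprimo, a cytoplasmic glycoprotein linked to arrest in G2, was the most weakly expressed of the 32, at an implied 33.01 normalized counts in control cells and 75.6 in Ehmt2 siRNA cells. It rose to 229% of the control level (interval 150% to 349%), a log2 fold change of 1.19 (adjusted p 0.00254). This was the largest rise among the members.

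Sfn, which encodes the 14-3-3 sigma protein of the G2 checkpoint, and Gadd45a, which binds PCNA and p21, had the most negative values of the arrest genes without passing. Sfn stood at 1621 and 1261 implied normalized counts (log2 fold change -0.36, interval -0.63 to -0.10, adjusted p 0.0633). Gadd45a stood at 621 and 496 (log2 fold change -0.32, interval -0.56 to -0.09, adjusted p 0.0677). Both passed when p-values were adjusted over genes with a mean of at least 50 (adjusted p 0.0466 and 0.0498). Gadd45a overlaps by 859 bases E230016M11Rik, a gene on the opposite strand with a log2 fold change of -0.83 (adjusted p 0.0998), and since the strand setting of the counting is unknown, reads of the pair may be mixed.

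The remaining arrest genes had intervals that span 0. Ccng1, which encodes cyclin G1, stood at 24166 and 26124 implied normalized counts (log2 fold change 0.11). Btg2, an antiproliferative gene of the BTG and Tob family, had a log2 fold change of -0.11. The polo-like kinases Plk2 and Plk3 had log2 fold changes of 0.26 and 0.15, with wide intervals of -0.13 to 0.66 and -0.19 to 0.48.

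Among the 14 apoptosis genes, Ei24 rose, Perp fell and 12 did not pass. Perp, a tetraspan membrane protein of desmosomes that p53 induces in apoptosis, stood at an implied 476 normalized counts in control cells and 323 in Ehmt2 siRNA cells. It fell to 67.7% of the control level (interval 56.6% to 80.9%), a log2 fold change of -0.56 (adjusted p 5.20e-04), the smallest p-value of the 32 genes. Ei24, an endoplasmic reticulum membrane protein also known as PIG8, rose from 7921 to 9527, a log2 fold change of 0.27 (interval 0.10 to 0.43, adjusted p 0.0238). That of Ei24 was the smallest change that passed, and it did not pass at an adjusted p below 0.01.

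The Bcl-2 family members did not pass. Bax, the pore-forming effector at the mitochondrion, had the highest level per kilobase of the 32 genes (13701 normalized counts) and a narrow interval around 0. Its implied counts were 15289 and 14854, and its log2 fold change was -0.04 (interval -0.18 to 0.09, adjusted p 0.904). Of the BH3-only genes, Bbc3, which encodes PUMA, stood at 1835 and 1565 (log2 fold change -0.23, interval -0.41 to -0.05, adjusted p 0.105). Pmaip1, which encodes NOXA, stood at 743 and 623 (log2 fold change -0.25), and its interval of -0.83 to 0.33 was among the widest.

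The death receptors and the scaffold genes Apaf1 and Pidd1 did not pass either. Fas had the widest interval of all, -0.62 to 0.89 around a log2 fold change of 0.14, at a mean of 104 normalized counts. Tnfrsf10b, the mouse receptor for TRAIL, had a log2 fold change of -0.12 and Eda2r, a receptor of the same family on the X chromosome, one of -0.05. Apaf1, the scaffold of the apoptosome, stood at 5577 and 6005 implied counts, with an interval of 0.0005 to 0.21 around 0.11, the narrowest of the 32, and did not pass (adjusted p 0.249). Pidd1, a scaffold of the PIDDosome, had a log2 fold change of -0.08.

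Phlda3, which encodes an inhibitor of Akt, was the member nearest to the threshold without passing. It stood at 5537 and 4891 implied normalized counts (log2 fold change -0.18, interval -0.31 to -0.05, adjusted p 0.0528). It passed when adjusted over genes with a mean of at least 50 (adjusted p 0.0388) or over the 16543 sorted genes (adjusted p 0.0428), and after removal of the trend on GC content described below it stood at -0.05 (adjusted p 0.857). The nuclease gene Aen had implied counts of 8843 and 8837. Trp53inp1, a cofactor in p53 phosphorylation and autophagy, had the highest mean count of the 32 (26088) and a log2 fold change of 0.18 (interval -0.06 to 0.43). Zmat3, an RNA-binding zinc finger gene, had one of -0.09 (interval -0.21 to 0.03).

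None of the 5 DNA repair genes passed, and their log2 fold changes ran only from -0.03 to 0.03, the narrowest range of any role. By DESeq2's unadjusted p below 0.05, 0 were higher and 0 lower. With the trend on GC content removed, as described below, they ran from -0.10 to 0.07. Xpc and Ddb2 recognise ultraviolet lesions in nucleotide excision repair, Ercc5 makes the 3′ incision, Polk copies past lesions, and Rrm2b supplies deoxynucleotides outside S phase. Xpc stood at 3013 and 3071 implied normalized counts, with an interval of -0.09 to 0.14. Rrm2b stood at 973 and 974, but with a wide interval of -0.39 to 0.40. Intervals were -0.38 to 0.35 for Polk, -0.29 to 0.23 for Ddb2 and -0.15 to 0.22 for Ercc5. Ddb2 overlaps Acp2 on the opposite strand by 2527 bases, and Acp2 itself had a log2 fold change of 0.07.

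Of the 3 metabolic and secreted targets, Gdf15 fell and the other 2 did not pass. Gdf15, a secreted cytokine of the TGF-beta family raised by many kinds of cellular stress, stood at an implied 1442 normalized counts in control cells and 833 in Ehmt2 siRNA cells. It fell to 57.8% of the control level (interval 44.2% to 75.5%), a log2 fold change of -0.79 (adjusted p 0.00137), the largest fall of the 32. Tigar, a fructose bisphosphatase that diverts glucose to the pentose phosphate pathway, had a log2 fold change of -0.08 (interval -0.23 to 0.08), and Sesn1, a sestrin that restrains mTORC1, had one of 0.16 (interval -0.02 to 0.34).

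**Figure D2:**
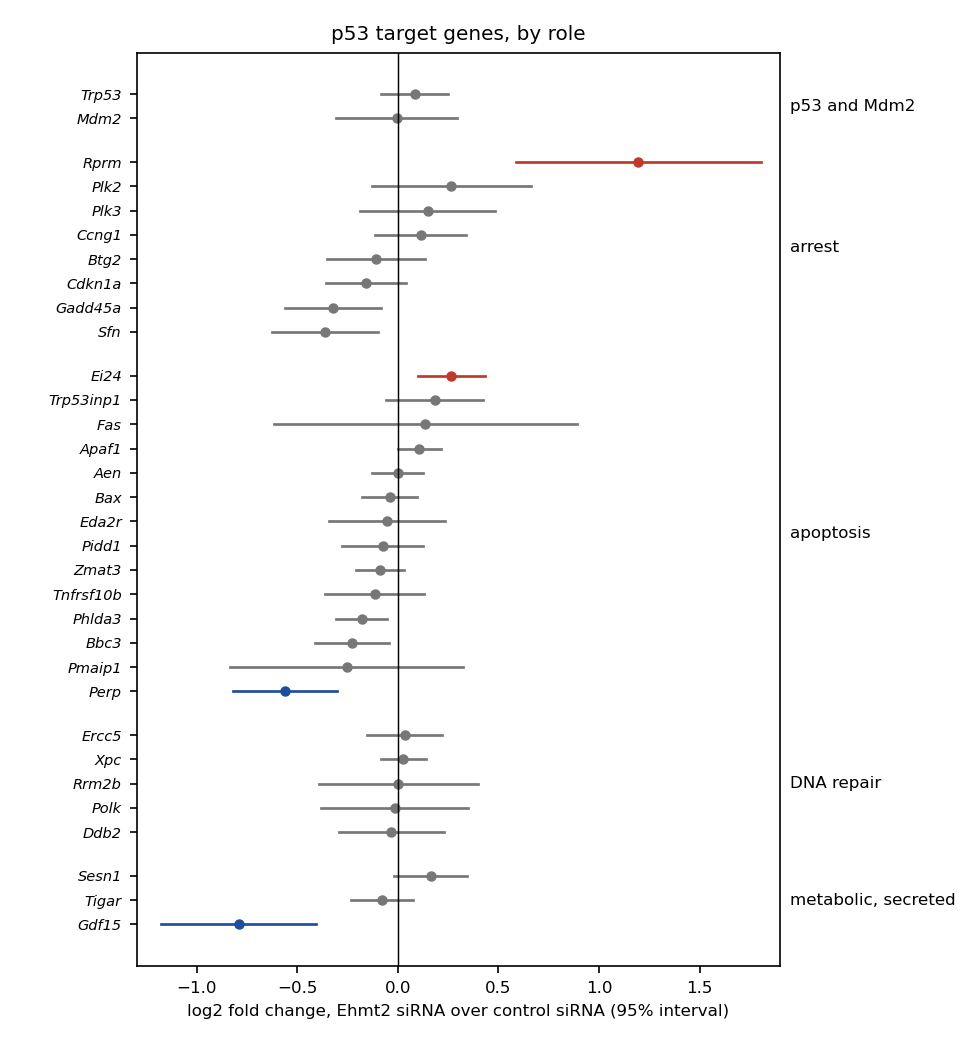
Log2 fold changes of the 32 genes with 95% intervals (x axis), grouped by role, red for genes that rose, blue for genes that fell and grey for genes that did not pass. Coloured points are Rprm (1.19), Ei24 (0.27), Perp (-0.56) and Gdf15 (-0.79), and the 5 repair genes lie between -0.03 and 0.03, rounded to 2 decimals.

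The precision of these values set what could be detected. The implied standard errors of the log2 fold changes ran from 0.05 for Apaf1 to 0.38 for Fas, with a median of 0.12, so a member at the median had to change by 0.34 on the log2 scale to pass. Of the 28 genes that did not pass, 23 had a 95% interval lying wholly between -0.5 and 0.5, and all 28 lay between -1 and 1. The 5 with an interval reaching past 0.5 in size were Sfn, Gadd45a, Plk2, Pmaip1 and Fas.

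Several members had larger standard errors than most genes of like abundance. The standard error of a member was set beside those of the 500 genes nearest to it in mean count. Mdm2 lay at percentile 97.4 of them (0.15, against a median of 0.07), Pmaip1 at 99.0, Plk2 and Polk at 98.4, Gdf15 at 96.0, Fas at 94.8 and Rrm2b at 94.6, with Eda2r between Fas and Gdf15. Apaf1 and Xpc lay at percentiles 4.60 and 2.60. The median percentile of the 32 was 67.4, and 11 of the 32 had a standard error below the median of their like. Which libraries carried the spread cannot be read from a table without library values.

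**Figure D3:**
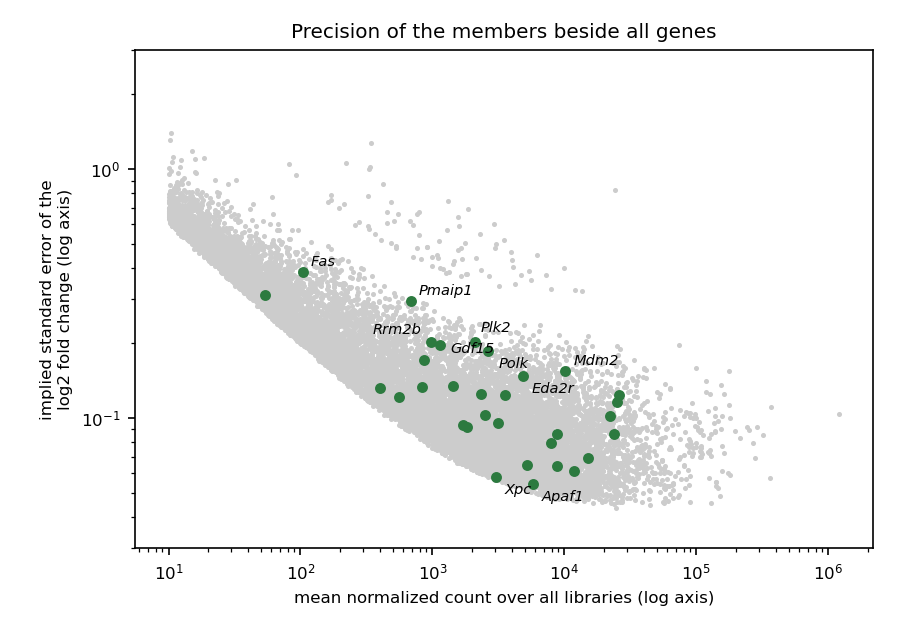
Implied standard error of the log2 fold change against mean normalized count, both on log axes, for all genes with a mean of at least 10 (grey) and the 32 genes (green). Named points lie above percentile 90 (Fas, Pmaip1, Rrm2b, Gdf15, Plk2, Polk, Eda2r and Mdm2) or below percentile 5 (Xpc and Apaf1) of genes of like mean.

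Some p53 targets are also raised by ATF4 or CHOP, the transcription factors of the integrated stress response, and 6 members belong to them: Gdf15, Gadd45a, Bbc3, Pmaip1, Cdkn1a and Tnfrsf10b. Their log2 fold changes were all below 0, from -0.79 to -0.12 with a median of -0.24, and only Gdf15 passed. The other 26 members had 13 values above 0 and 13 below, with a median of 0.00, and among them 2 rose and 1 fell. ATF4 and CHOP genes outside the 32 fell in 18 of 28 cases and rose in 0, against 4.82% falls over all genes tested, and all 28 values were below 0 (by DESeq2's unadjusted p below 0.05, 0 were higher and 22 lower). With the trend on GC content removed 13 fell, and at an adjusted p below 0.01 14 fell, where 703 and 601 of all genes fell. Their median log2 fold change was -0.34. Log2 fold changes were -0.29 for Atf4 itself, -0.71 for Ddit3, which encodes CHOP, -1.02 for Atf3, -0.68 for the pseudokinase gene Trib3, and -0.80 for Chac1, which encodes a glutathione-degrading enzyme. The others that fell were Cebpb (-1.48), Fgf21 (-2.67), Nupr1, Sesn2, Eif4ebp1, the amino acid transporter genes Slc7a11, Slc7a5 and Slc3a2, and the genes of amino acid synthesis Aldh18a1, Gpt2, Shmt2, Phgdh and Pycr1. The part of these genes in the values of the 6 members was not tested. The element TGATGNAA, which C/EBP and ATF factors bind as a pair, was searched on either strand of the windows. It occurred in Sfn, before the start, and in Polk, after the start, 8.33% of members with a window against 4.51% of all genes. Neither belongs to the 6 members above. The windows of Gdf15, Gadd45a, Bbc3 and Cdkn1a did not hold it, and Pmaip1 and Tnfrsf10b had no window.

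Other targets of p53 were read from a list of 40 genes outside the 32. Of these, 6 fell, 1 rose and 33 did not pass, beside 4.82% and 5.45% over all genes tested, and their median log2 fold change was -0.10. Over genes with a mean of at least 50, 7.19% fell and 6.86% rose. Of the 40 values, 13 were above 0 and 27 below. At DESeq2's unadjusted p below 0.05, 1 was higher and 11 lower, where 12.6% and 13.6% of genes with a mean of at least 50 were. Fdxr, a mitochondrial ferredoxin reductase, fell, with a log2 fold change of -0.34, as did the noncoding gene Pvt1 (-0.36), the repressor gene Bcl6 (-0.40) and the phospholipid transfer gene Pltp (-0.18). Sesn2, a sestrin that also belongs to the ATF4 list, fell by 0.28, from 8480 to 6976. Dram1, a lysosomal membrane gene of autophagy, fell by 2.69 at a mean of only 12.6 normalized counts, with an interval of -4.07 to -1.31. After removal of the trend on GC content 3 of the 40 fell, as Fdxr (-0.22, adjusted p 0.0849), Sesn2 (-0.17, adjusted p 0.209) and Pltp (-0.08, adjusted p 0.648) no longer passed.

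Of 36 regulators of p53, 2 rose and 2 fell, or 5.56% in each direction beside 5.45% upward and 4.82% downward over all genes tested. The downward share counts Ehmt2 itself, the siRNA target whose value set the sign, so only the fall of Setd7 was free to go either way. Trim24, a ubiquitin ligase for p53, rose from an implied 10052 to 13359 normalized counts (log2 fold change 0.41, adjusted p 1.54e-11). Atm, the kinase activated by DNA double-strand breaks, rose by 0.19 on the log2 scale, and after removal of the trend on GC content it stood at 0.11 (adjusted p 0.355). Setd7, a lysine methyltransferase that modifies p53, fell by 0.83 (adjusted p 0.0132). Mdm4, the inhibitory partner of Mdm2, had a log2 fold change of -0.17 (interval -0.38 to 0.04), and Cdkn2a, whose Arf product binds Mdm2, one of 0.22 (interval -0.05 to 0.50). Rpl5 and Rpl11, the ribosomal proteins that bind Mdm2 when ribosome assembly is disturbed, had values of -0.03 and 0.03.

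Genes of S phase and mitosis that p53 lowers through p21 and the DREAM complex did not pass in any of 39 cases (by DESeq2's unadjusted p below 0.05, 3 were higher and 1 lower). Over all genes with a mean of at least 50, 14.1% passed, and 26.2% had an unadjusted p below 0.05. Their median log2 fold change was 0.06, with 27 values above 0. Cdk1, the kinase that drives mitosis, had the smallest p-value, with implied counts of 11731 and 13098 (log2 fold change 0.16, adjusted p 0.0827). Mybl2, a factor of the mitotic programme, was lower at -0.21 (adjusted p 0.143), and Mad2l1 and Ect2 stood at 0.20 and 0.11.

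Relatives and partners of the members were read from 3 further lists, beside a background of 10.3% of all genes tested and 14.1% of those with a mean of at least 50. Of 25 paralogs, 1 rose and 3 fell. Ccng2, the paralog of Ccng1, rose by 0.47 on the log2 scale (adjusted p 9.46e-05). Phlda2, an imprinted paralog of Phlda3, fell by 0.79, Bak1, the other pore-forming protein beside Bax, fell by 0.24, and Sesn2 also fell. Of 22 genes of the apoptosis machinery, 1 rose and 2 fell. Hrk, a BH3-only gene, fell by 1.36, from an implied 293 to 114 normalized counts (adjusted p 7.05e-06), and Bak1 was the other that fell. Of 21 partners in nucleotide excision repair, nucleotide supply and lesion bypass, Ercc4 rose by 0.27 and Ercc8 fell by 0.22, while Gtf2h4 (-0.19) and Ddb1 (0.12) did not pass. After removal of the trend on GC content neither Bak1 (-0.13, adjusted p 0.104) nor Sesn2 (-0.17, adjusted p 0.209) passed, which left 1 fall among the paralogs and 1 in the apoptosis machinery.

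**Figure D4:**
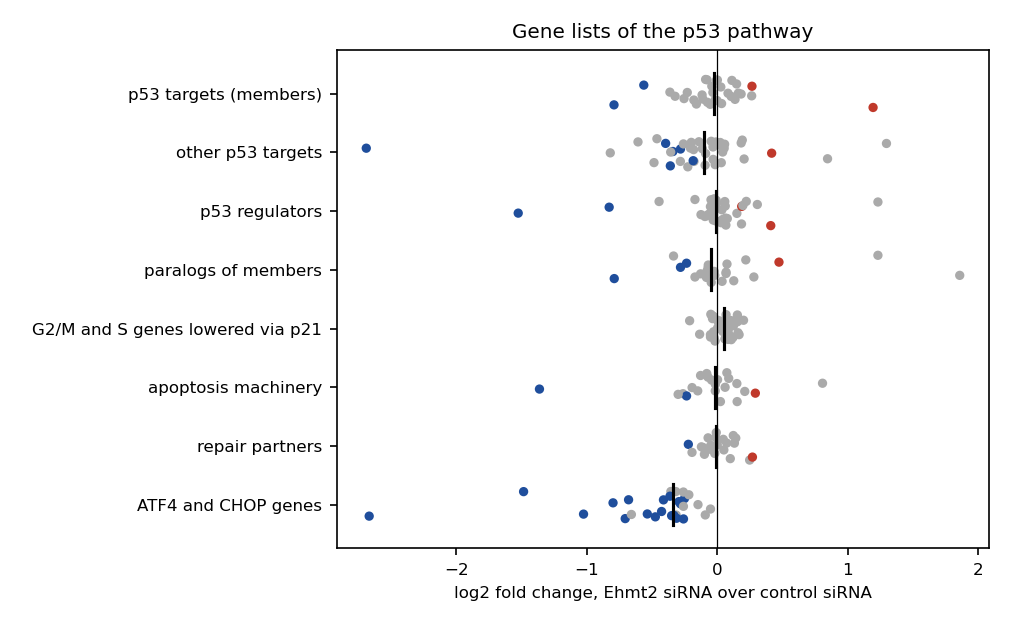
Log2 fold change of each gene (points) in the 32 p53 targets and 7 other lists, with red for genes that rose, blue for genes that fell, grey for genes that did not pass, and a black bar at each list's median. Medians lie between -0.10 and 0.06 except that of the ATF4 and CHOP genes, at -0.34.

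The 4 genes that changed differ in their surroundings. Rprm (chromosome 2, 54084093 to 54085552) has the longest distance of the 32 to its nearest gene with a mean of at least 50, 864.9 kb on one side and 3152.1 kb on the other, where the median member has one at 8.95 kb. Neither of these, Arl6ip6 at 0.14 and Gpd2 at -0.18, passed, while 1 of the 4 expressed genes nearest in order, 2 on each side, did. Gdf15 (chromosome 8, 70629393 to 70632470), Perp (chromosome 10, 18845071 to 18857073) and Ei24 (chromosome 9, 36779153 to 36797334) have nearer neighbours. Ssbp4 beside Gdf15 fell (-0.30), while Pgpep1, nearer on the other side, did not pass (-0.06, adjusted p 0.871). Tnfaip3 beside Perp rose (0.78 at 143.8 kb), while Arfgef3, nearer on the other side, did not pass (0.32, adjusted p 0.572). The neighbours beside Ei24, the nearest at 11.5 kb, did not pass. Over all members, 14 of 128 such neighbours, 2 on each side, passed (10.9%), beside 14.1% of genes with a mean of at least 50.

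The 250 bases before the starts of Rprm, Gdf15 and Ei24 are shown because these members changed, with CpG dinucleotides in capitals (RefSeq, GRCm38.p6, minus strand, 5′ to 3′).
Rprm: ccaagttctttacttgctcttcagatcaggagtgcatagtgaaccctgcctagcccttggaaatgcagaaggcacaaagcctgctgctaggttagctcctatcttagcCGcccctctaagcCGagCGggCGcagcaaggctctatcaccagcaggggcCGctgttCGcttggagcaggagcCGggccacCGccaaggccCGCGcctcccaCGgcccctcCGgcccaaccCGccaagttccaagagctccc
Gdf15: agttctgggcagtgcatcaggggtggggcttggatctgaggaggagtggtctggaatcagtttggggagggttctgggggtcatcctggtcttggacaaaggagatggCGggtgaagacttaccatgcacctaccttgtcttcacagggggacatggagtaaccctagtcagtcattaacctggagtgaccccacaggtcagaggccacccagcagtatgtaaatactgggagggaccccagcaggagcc
Ei24: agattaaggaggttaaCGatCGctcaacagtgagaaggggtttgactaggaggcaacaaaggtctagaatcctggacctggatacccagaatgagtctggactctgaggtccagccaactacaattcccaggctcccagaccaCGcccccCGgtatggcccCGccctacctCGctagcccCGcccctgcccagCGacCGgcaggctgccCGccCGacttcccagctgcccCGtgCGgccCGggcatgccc
They lie at chr2:54085553-54085802, chr8:70632457-70632706 and chr9:36797335-36797584. The Rprm stretch holds 13 CpG dinucleotides and that of Ei24 14, whereas that of Gdf15 holds 1. Gdf15 has a second annotated start, not shown, with 6 CpG dinucleotides before it. The median was 14 over the windows of members and 6 over all windows. No methylation or chromatin values were used here.

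Transcripts rich in G and C had lower log2 fold changes over the whole table, with a Pearson correlation of -0.31 over genes with a mean of at least 50. Over the 32 members the correlation was -0.16, and -0.37 without Rprm, as a description of genes that share the same libraries. After a smooth trend on GC content was removed, Rprm stood at 1.29, Perp at -0.58, Gdf15 at -0.67 and Ei24 at 0.27, and these 4 remained the members that passed. Sfn moved to -0.25 and Bbc3 to -0.09, and neither passed. Of members that did not pass, Bax (0.09), Pidd1 (0.03), Aen (0.03) and Rrm2b (-0.10) changed sign.

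Markers of other lineages moved in both directions, and their part in the values above was not tested. The counts of the marker lists stand beside 5.45% of all genes tested that rose and 4.82% that fell. Of 9 trophectoderm markers 1 rose and 3 fell. Cdx2, a defining factor of that lineage, rose (1.31, adjusted p 0.00227), while the keratin genes Krt8 (-1.23) and Krt18 (-1.22) and the factor gene Tead4 (-0.31) fell. The other 5 did not pass, among them Tfap2c at 0.29. Of all 9 values, 3 were above 0 and 6 below. Of 9 primitive endoderm markers 1 fell and 1 rose. Of 8 fibroblast markers 1 rose, with means of 0.159 to 439 normalized counts, and Dcn was listed at 0 without a p-value. Of 8 neural markers 1 rose and 1 fell. In bulk RNA, fewer cells of a type and less RNA per cell cannot be told apart.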

How the data were processed

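PolyA RNA went into stranded TruSeq libraries for paired-end sequencing (labels' protocols). DESeq2, STAR, Trimmomatic 0.36 and FastQC, with mm10 and GRCm38 as builds, are listed, without order, per the submitters' processing notes. No annotation, counter or strand setting is given in the sources used here. What the authors deposited is 1 table, with a signal per gene (the mean of read counts divided by size factors over 6 libraries), a log2 fold change and an unadjusted p-value, per the file headers, which are DESeq2's. The numerator is not stated.

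From these, p-values were adjusted by Benjamini-Hochberg over 20461 genes, and each standard error was found by dividing the fold change (log2) by the normal deviate of its p-value, on the assumption of a Wald test. The adjustment and the standard error step were also run on values simulated from these same standard errors. Such a run cannot check the Wald assumption or the other steps. GC content and length are those of the longest GENCODE M21 transcript (all 32 members, 97.2% of tested genes). The trend on GC was a lowess curve (fraction 0.3) over genes with a mean of at least 50. Promoter windows and coordinates come from RefSeq GRCm38.p6. Python 3.11.15, scipy 1.17.1 and statsmodels 0.14.6 were used. The text names Ehmt2, Ehmt1, the 32 members, and of each pathway list the genes that passed or, with fewer than 4, those of smallest p-value with a mean of at least 10. A few genes that this rule names are not reported here. Of the marker lists only examples are named, and Rpl5, Rpl11, Mdm4, Cdkn2a, the marker genes, neighbours and overlapping genes named were chosen after their values were seen. The members and lists were chosen with earlier results of these data known. Among the pathway lists, 8 pairs share 1 to 3 genes.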

Additional observations from a re-analysis of the deposited data

How the results depend on the processing

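Alternatives adjusted p-values over genes with a mean of at least 10, at least 50, or listed in order of significance (16543 genes), required an adjusted p below 0.01, used Bonferroni, centred fold changes on the median (-0.002 on the log2 scale), removed the GC trend, or required a log2 change of at least 0.26. The 2 rises among the members became 1 at an adjusted p below 0.01 and 0 with Bonferroni. Their 2 falls became 3 over genes in order of significance, by way of Phlda3, and 4 and 5 over genes with a mean of at least 10 and 50, by way of Phlda3 and Sfn and then Gadd45a, and 0 with Bonferroni. No other alternative moved these counts, and the median of the members stayed between -0.05 and -0.02. Over all genes tested, 1116 rose and 987 fell by the main test. At an adjusted p below 0.01, 726 rose and 601 fell, and with Bonferroni 311 and 212. The counts over all genes were 891 and 703 with the GC trend removed, and 929 and 843 with a change of at least 0.26 required. With Bonferroni, regulators had 1 rise and 1 fall, the other p53 targets 0 and 0, paralogs 0 falls, the apoptosis machinery 0 rises and 1 fall, repair partners 0 and 0, and ATF4 and CHOP genes 4 falls. At an adjusted p below 0.01, regulators had 1 rise and 1 fall and repair partners 0 falls. The regulator that fell there and with Bonferroni was Ehmt2, the siRNA target. With the GC trend removed, regulators had 1 rise, the other p53 targets 3 falls, paralogs 1 fall and the apoptosis machinery 1 fall. With a change of at least 0.26 required, regulators had 1 rise, the apoptosis machinery 1 fall and repair partners 0 falls. No paired analysis was possible because the table carries no values per library, and for the same reason no library could be left out. Weakly expressed members (Rprm and Fas, with means of 54.3 and 104) had the standard errors of 0.31 and 0.38.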
